A study of Homo sapiens with 8 samples.

Results

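The 9 genes described here encode proteins of the exon junction complex, of the ASAP and PSAP complexes that join it, and of the step that hands spliced mRNA to the export machinery. They were taken as a named list (EIF4A3, MAGOH, MAGOHB, CASC3, RNPS1, ACIN1, SAP18, PNN and ALYREF) and found by matching Ensembl identifiers to symbols. They are 9 of the 60624 genes counted. All 9 were among the 18661 genes with enough reads to be tested, so that no member was lost to the filter on low counts. The cells were A549, an established human lung adenocarcinoma line, in 4 groups: untreated, treated with indisulam (0.5 μM), treated with SPHINX31 (5 μM), or given both compounds at these doses, for 24 h. Indisulam leads to degradation of the splicing factor RBM39, and SPHINX31 inhibits SRPK1, a kinase that phosphorylates serine/arginine-rich splicing factors. The paper describes potential off-target activity of SPHINX31 and cites CLK1 and SRSF2 as further reported targets. The comparisons ask how mRNA of these genes changed under indisulam, under SPHINX31, and under both. The amount of RBM39 protein left in these cells is not part of the data. The deposited labels give 2 μM indisulam and 18 h as the protocol for all libraries, untreated ones included, and the doses above are those of the study's methods. Each group had 2 technical replicates, so that every p-value below measures the spread between technical replicates and not between independent treatments.

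The exon junction complex is placed on mRNA upstream of each spliced junction. Its core is the DEAD-box ATPase EIF4A3, clamped on RNA by the heterodimer of MAGOH (or its paralog MAGOHB) with RBM8A, and CASC3 binds this core. RNPS1 and SAP18 form the ASAP complex with ACIN1 or the PSAP complex with PNN, both of which associate with the exon junction complex and affect splice site choice. ALYREF, a subunit of the TREX complex, binds the exon junction complex and the cap-binding complex and recruits the export receptor to spliced mRNA. Complexes left on an mRNA after it has been exported can mark it for nonsense-mediated decay.

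MAGOH lies on chromosome 1 (53226900 to 53238518, minus strand) and MAGOHB on chromosome 12 (10604193 to 10613609, minus strand) of GRCh38, each with 5 exons. They code for nearly the same protein, and their counts are only useful if reads can tell them apart. The stretches below, read from their GENCODE transcripts, are shown for that reason. They cover bases 4 to 153 of the MAGOH coding sequence and bases 10 to 159 of the MAGOHB coding sequence, the capitals mark the 18 bases at which they differ, and 150 bases is the length of 1 read.
MAGOH: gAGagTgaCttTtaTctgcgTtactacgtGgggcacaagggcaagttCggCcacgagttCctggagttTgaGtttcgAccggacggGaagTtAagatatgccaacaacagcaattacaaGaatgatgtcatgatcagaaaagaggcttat
MAGOHB: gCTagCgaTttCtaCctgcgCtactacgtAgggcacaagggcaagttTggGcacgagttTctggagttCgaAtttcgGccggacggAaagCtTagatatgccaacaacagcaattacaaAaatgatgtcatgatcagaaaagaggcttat
The coding sequences have 441 and 447 bases. Over 441 aligned bases they were 86.6% identical, with 59 differing bases and a longest identical run of 38 bases. Every window of 150 aligned bases held between 15 and 25 differences.

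Promoter sequence is shown here for PNN and ALYREF. PNN (chromosome 14, 39175183 to 39183220, plus strand, 9 exons) had the largest rise. The sequence upstream of its start (RefSeq promoter table, GRCh38.p14, chr14:39175004-39175182, plus strand) is given first. ALYREF (chromosome 17, 81887835 to 81891586, minus strand, 6 exons) fell, and its upstream sequence (chr17:81891588-81891837, minus strand) follows. Capitals mark matches on either strand to the 4 motifs spelled out after the sequences.
PNN: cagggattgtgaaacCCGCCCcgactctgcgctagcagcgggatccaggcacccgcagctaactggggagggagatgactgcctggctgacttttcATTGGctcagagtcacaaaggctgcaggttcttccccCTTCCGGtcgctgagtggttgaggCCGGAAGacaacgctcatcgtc
ALYREF: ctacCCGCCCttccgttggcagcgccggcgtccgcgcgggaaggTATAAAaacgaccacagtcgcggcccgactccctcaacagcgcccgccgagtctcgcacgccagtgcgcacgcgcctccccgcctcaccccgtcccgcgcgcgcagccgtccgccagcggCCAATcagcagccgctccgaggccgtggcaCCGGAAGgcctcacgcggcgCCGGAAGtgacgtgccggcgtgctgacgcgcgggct
The 250 bases before the RefSeq start were searched for the 7 genes with an entry in the table, which has none for CASC3 and SAP18. Measured from the GENCODE gene start, all 250 bases were upstream for MAGOH and ALYREF, 227 for EIF4A3, 179 for PNN, 107 for ACIN1 and 0 for MAGOHB and RNPS1, and the rest lay inside the gene. GGGCGG, the GC box, was found in 6 of 7 (all but MAGOHB) and in 42.3% of all 27305 promoters. CCGGAAG, a core of sites for ETS factors, was found in 4 of 7 (ACIN1, ALYREF, MAGOH and PNN) and in 8.82% of all promoters. CCAAT was found in 3 of 7 (ALYREF, PNN and RNPS1) against 33.0% of all. TATAAA was found in ALYREF alone among the 7, against 11.1% of all. PNN and ALYREF shared all of these motifs but TATAAA. The shares are of all promoters in the table, and promoters of like GC content or expression were not taken. These are matches of letters, and binding was not measured. Any part of the motifs in the changes of mRNA was not tested.

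The libraries held 51727369 to 63186989 counts on genes, or 83.0% to 86.0% of the reads recorded. The epithelial keratins KRT7, KRT8 and KRT18 were abundant, while the leukocyte markers PTPRC and CD3E were at 0.0524 CPM (counts scaled by library size) or less. CDKN2A and CDKN2B, a locus known to be deleted in A549, were at 2.65 to 3.64 and 0.88 to 1.85 CPM and not at 0. The surfactant gene SFTPB was at 0 in all libraries. RBM39 mRNA was at 154 and 157 CPM in untreated libraries and between 360.3 and 391 CPM in the 4 libraries with indisulam. The counts are of mRNA, and protein was not measured. Reads outside annotated features made up 3.67% to 4.34% of recorded reads without indisulam and 4.49% to 5.87% with it.

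Levels can be set side by side only per length of transcript, here in CPM per kilobase of the canonical transcript. Which transcripts the cells used was not measured. In untreated cells ALYREF was highest at 86.5 ± 1.08 (SD, n = 2 here and below), followed by RNPS1 at 76.2 ± 1.26. ACIN1 (45.3 ± 1.03), EIF4A3 (44.3 ± 0.95) and MAGOH (41.4 ± 2.27) came next, and neighbours among these differed by less than the sum of their SDs. The same held for PNN (35.4 ± 1.45) and SAP18 (33.5 ± 0.57), with CASC3 at 29.1 ± 0.06 and MAGOHB lowest at 15.0 ± 0.88. The order at the top was turned with indisulam: RNPS1 was at 92.8 ± 2.92 and ALYREF at 75.5 ± 3.71. In the combination the values were 93.5 ± 2.39 and 74.6 ± 3.44. PNN moved from the sixth place to the third with indisulam, at 55.9 ± 8.47, but its SD covers ACIN1 at 52.4 ± 2.99.

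**Figure D1:**
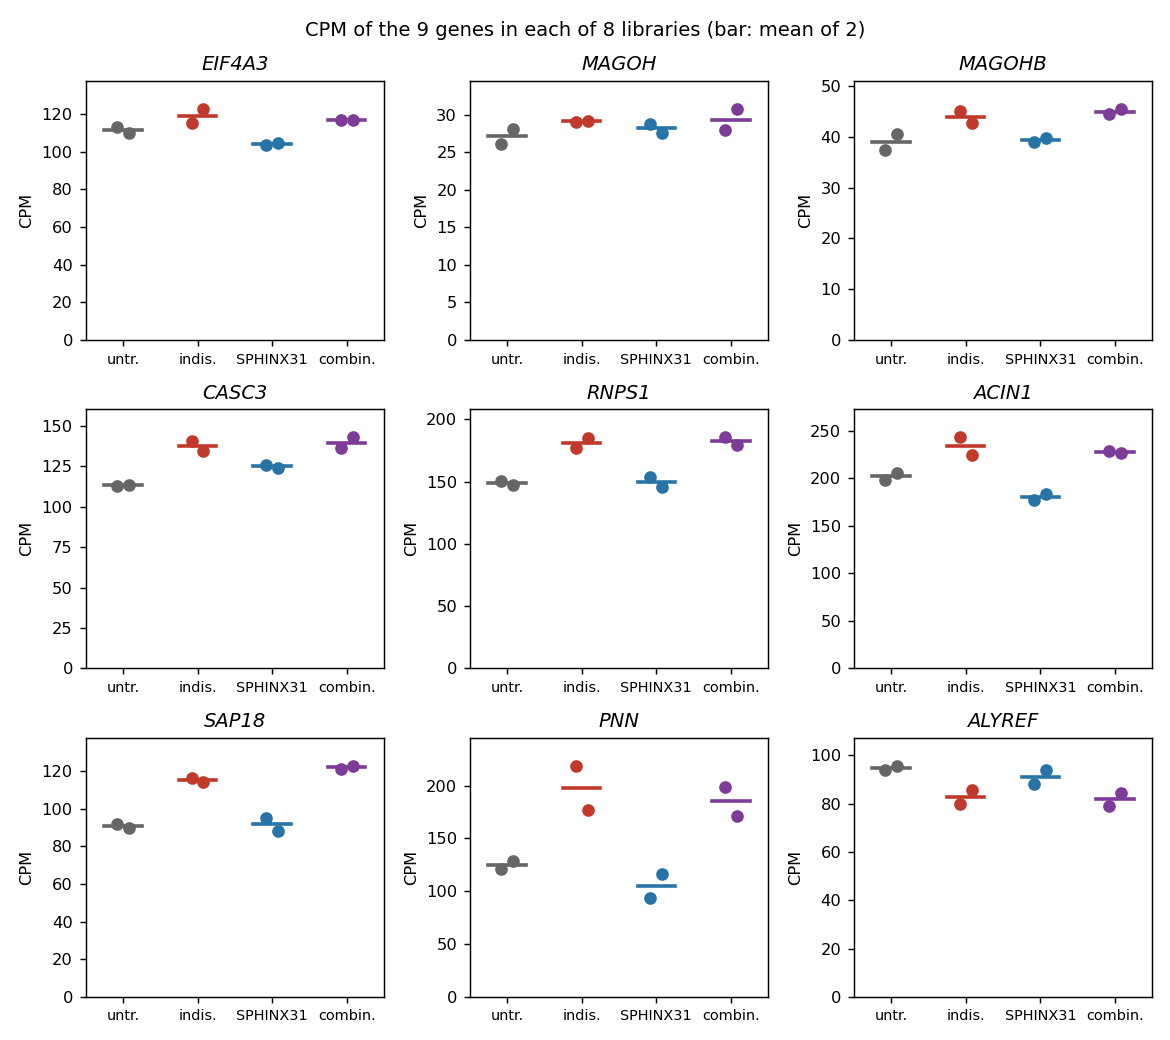
CPM of each of the 9 genes (vertical axes, starting at 0, with a scale of their own) in the untreated, indisulam (indis.), SPHINX31 and combination (combin.) groups, where points are libraries and bars the mean of 2. The 4 libraries with indisulam lie above the 4 without it for 7 genes, below them for ALYREF, and overlap with them for MAGOH. Of all tested genes, 21.5% were separated upward and 24.3% downward in this way.

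Among the core genes, CASC3 changed most against untreated cells, with indisulam and with the combination. This gene, whose product binds the core complex and takes part in nonsense-mediated decay (chromosome 17, 40140318 to 40172171, plus strand), was at 113 and 114 CPM in untreated libraries, at 141 and 135 CPM with indisulam, at 126 and 124 CPM with SPHINX31, and at 136 and 143 CPM with the combination. All 4 libraries with indisulam were above all 4 without, as in 21.5% of all tested genes. The SPHINX31 libraries lay between the untreated ones and those with indisulam. With indisulam against untreated the log2 fold change was 0.28 (SE 0.05, or 21.3% higher), with an adjusted p of 4.9e-04 (quasi-likelihood test of edgeR, adjusted after Benjamini and Hochberg over the whole table). That test, with a threshold of 0.05, gives every adjusted p below. For the combination against SPHINX31, a comparison that shares no library with the first, the value was 0.16 (SE 0.05, adjusted p = 0.015), below those of MAGOHB and, by less than 0.01, of EIF4A3. Without combination replicate 2 it was 0.13 (adjusted p = 0.0997).

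EIF4A3, the helicase of the core (chromosome 17, 80134369 to 80147151, minus strand), was at 113 and 110.0 CPM untreated, 115 and 123 with indisulam, 104 and 105 with SPHINX31, and 117 in both combination libraries. The 4 libraries with indisulam were again higher, but by a small margin, since the lowest with indisulam was at 115 CPM and the highest without at 113. The log2 fold change was 0.09 with indisulam (95% interval -0.02 to 0.20, adjusted p = 0.15) and 0.16 for the combination against SPHINX31 (0.06 to 0.27, adjusted p = 0.015). EIF4A3 thus passed the threshold in the second comparison and not in the first, and the difference between them, the interaction, was 0.07 (-0.08 to 0.22, adjusted p = 0.82). The second call was lost without combination replicate 2 (adjusted p = 0.053) and at a threshold of 0.01.

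MAGOH was the only member whose groups overlapped between libraries with and without indisulam. It was at 26.1 and 28.2 CPM untreated, 29.1 and 29.3 with indisulam, 28.9 and 27.6 with SPHINX31, and 27.9 and 30.8 with the combination. Its log2 fold change was 0.11 with indisulam (-0.04 to 0.25, adjusted p = 0.23) and 0.06 for the combination against SPHINX31 (-0.09 to 0.20, adjusted p = 0.51). MAGOHB was at 37.4 and 40.6 CPM untreated, 45.1 and 42.8 with indisulam, 38.9 and 39.8 with SPHINX31, and 44.4 and 45.5 with the combination. Here the libraries with indisulam did not overlap with the others. MAGOHB rose by 12.6% with indisulam (log2 fold change 0.17, SE 0.06, adjusted p = 0.034) and by 14.2% with the combination against SPHINX31 (0.19, SE 0.06, adjusted p = 0.017). Without untreated replicate 1 or without indisulam replicate 1, the indisulam value was 0.11 (adjusted p = 0.29) or 0.13 (adjusted p = 0.19), and with GC offsets and the replicate block it was 0.13 (adjusted p = 0.053). The value on top of SPHINX31 lost its call without SPHINX31 replicate 1 (adjusted p = 0.055) or combination replicate 2 (adjusted p = 0.083). RBM8A, the partner of both paralogs, was between 129.6 and 136 CPM in all 8 libraries, with a log2 fold change of -0.01 with indisulam (SE 0.05, adjusted p = 0.83).

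The share of MAGOHB among the counts of both paralogs describes their counts within each library, apart from any scaling between libraries. The MAGOHB transcript is longer, at 2606 bases against 656, so that a share of counts is not a share of molecules. The share of counts was 58.9% and 59.0% in untreated libraries, 60.7% and 59.4% with indisulam, 57.4% and 59.0% with SPHINX31, and 61.4% and 59.6% with the combination. The 95% Wilson interval of a single library, which covers counting error only, was 57.4% to 60.4% in untreated replicate 1 and about as wide in the others. The 4 shares with indisulam were all higher than the 4 without, at 60.3% ± 0.94 and 58.6% ± 0.80 (SD, n = 4 each). The difference of 1.68 points had p = 0.0286 in an exact two-sided permutation test, the smallest p that 4 against 4 libraries allow. That test exchanged libraries across the groups with and without SPHINX31, and so did not keep to the design. Its 4 against 4 are technical replicates of different treatments. For the indisulam and untreated libraries alone the difference was 1.08 points, and for the combination and SPHINX31 libraries alone 2.27 points, each with an exact p of 0.333, the smallest that 2 against 2 allow. Per kilobase of the canonical transcripts MAGOHB was the lower of the paralogs, with a share of 27.6% ± 0.79 with indisulam and 26.3% ± 0.63 without (SD, n = 4 each, p = 0.0286 in the same permutation test). That order rests on the annotated lengths, and the transcript ends used in these cells were not measured.

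**Figure D2:**
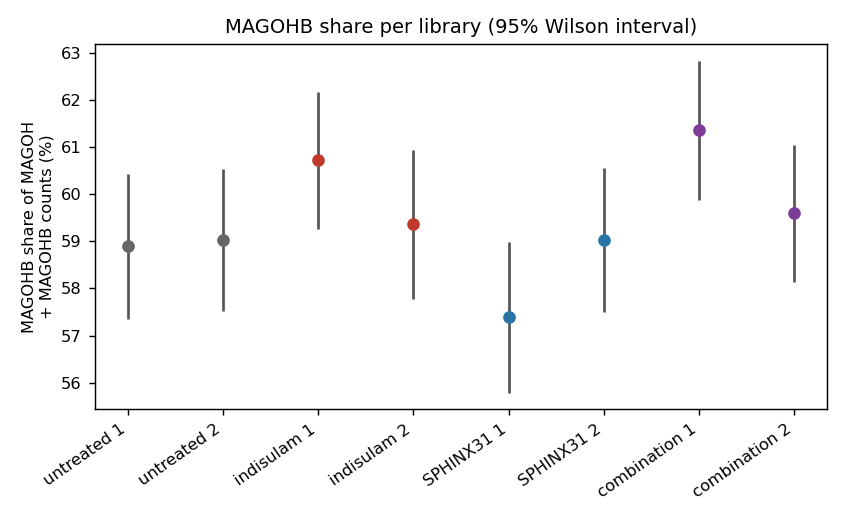
MAGOHB share of the MAGOH and MAGOHB counts (vertical axis, percent, not starting at 0) in each of the 8 libraries, with 95% Wilson intervals that cover counting error only. The libraries with indisulam lie between 59.4% and 61.4%, above the others at 57.4% to 59.0%, and many but not all of the intervals of single libraries overlap between these sets.

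All 4 genes of ASAP and PSAP rose past the threshold with indisulam, as did 20.1% of all tested genes. RNPS1, a splicing regulator shared by both complexes (chromosome 16, 2253116 to 2268397, minus strand), was at 150.4 and 147 CPM untreated, 177 and 185 with indisulam, 154 and 145 with SPHINX31, and 186 and 179 with the combination. SAP18, a small ubiquitin-fold protein also shared by both (chromosome 13, 21140119 to 21149097, plus strand), was at 91.8 and 89.6 CPM untreated, 116 and 114 with indisulam, 95.3 and 88.1 with SPHINX31, and 121 and 123 with the combination. For these genes the SPHINX31 libraries stood with the untreated ones, and the combination libraries with those of indisulam alone. RNPS1 rose by 21.8% (log2 fold change 0.28, SE 0.05, adjusted p = 5.1e-04) and SAP18 by 27.2% (0.35, SE 0.05, adjusted p = 1.4e-04). On top of SPHINX31 the rises were 22.0% (0.29, adjusted p = 3.8e-04) and 33.0% (0.41, adjusted p = 2.5e-05). Both genes passed the threshold in all 20 alternative analyses of each of these 2 comparisons. Reads of RNPS1 could be shared with its processed pseudogene RNPS1P1, which had 32 to 46 counts per library, against 8320 to 10611 for RNPS1.

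ACIN1, the scaffold of ASAP (chromosome 14, 23058564 to 23095614, minus strand), was at 199 and 205 CPM untreated, 243 and 224 with indisulam, 177 and 183 with SPHINX31, and 228 and 227 with the combination. The libraries with SPHINX31 alone were the lowest and those with indisulam the highest. ACIN1 rose by 15.8% with indisulam (log2 fold change 0.21, SE 0.05, adjusted p = 0.0048) and by 26.3% on top of SPHINX31 (0.34, SE 0.05, adjusted p = 1.2e-04). The first value lost its call without untreated replicate 1 (0.19, adjusted p = 0.057) or indisulam replicate 1 (0.15, adjusted p = 0.076). Its exons share 110 bases with C14orf119 on the opposite strand, which had 2527 to 3525 counts per library, and the strand setting of the counting is not given in the sources used here.

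PNN, the scaffold of PSAP and a protein of nuclear speckles, had the largest change of the 9 genes. It was at 122 and 129 CPM untreated, 219 and 177 with indisulam, 93.9 and 116 with SPHINX31, and 199 and 171 with the combination. The groups with indisulam lay above those without it, with 171 CPM as the lowest value of the former and 129 CPM as the highest of the latter. PNN rose by 58.1% with indisulam (log2 fold change 0.66, SE 0.11, adjusted p = 2.4e-04). On top of SPHINX31 it rose by 76.2% (0.82, SE 0.11, adjusted p = 3.2e-05).

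PNN also varied most between replicates. The higher library of a group was 1.06 to 1.24 times the lower one for PNN, and at most 1.10 times for the other 8 genes. In 4 of 4 groups the library with more PNN was also the one with more reads outside annotated features. ACIN1 had the same order in 4 of 4 groups, so that it is not particular to PNN. How many of all tested genes share this order was not counted. These reads made up 5.48% and 4.49% of the recorded reads in the indisulam libraries, 5.87% and 4.87% with the combination, 3.94% and 4.34% untreated, and 3.67% and 3.93% with SPHINX31. Their part in the values of PNN was not tested. PNN kept its call in all 20 alternatives of each of both comparisons, and leaving out 1 library at a time its log2 fold change with indisulam ran from 0.50 to 0.82.

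**Figure D3:**
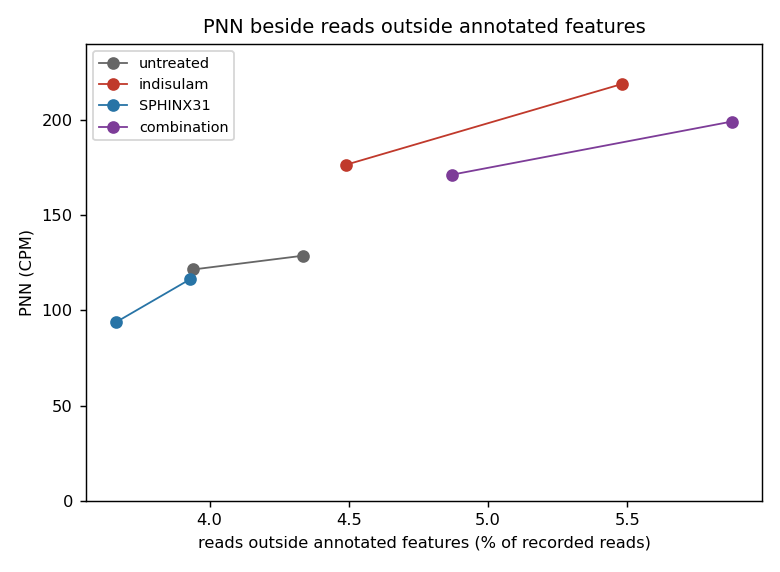
PNN level (vertical axis, CPM, starting at 0) against reads outside annotated features (horizontal axis, percent of recorded reads) in 8 libraries, with a line joining the 2 libraries of a group. Each of the 4 lines rises to the right, and the 4 libraries with indisulam, at 171 to 219 CPM, lie above those without.

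ALYREF, the export adaptor, went the other way. It was at 94.0 and 95.7 CPM untreated, 80.0 and 85.7 with indisulam, 88.1 and 94.1 with SPHINX31, and 79.1 and 84.5 with the combination. All 4 libraries with indisulam were below the lowest of the others, at 88.1 CPM, and 24.3% of all tested genes were separated this way. ALYREF fell by 12.7% with indisulam (log2 fold change -0.20, SE 0.06, adjusted p = 0.014) and fell by 10.2% on top of SPHINX31 (-0.16, SE 0.06, adjusted p = 0.038). The latter call was lost in 8 of 20 alternatives, a stricter threshold of 0.01 included. The first was lost without untreated replicate 1 (-0.21, adjusted p = 0.053), untreated replicate 2 (-0.18, adjusted p = 0.086) or indisulam replicate 1 (-0.15, adjusted p = 0.13). ALYREF shares 62 exon bases with ANAPC11 on the opposite strand, which had 3199 to 3701 counts per library.

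Over the list, 6 of the 9 genes rose and 1 fell with indisulam against untreated, where 43.7% of all tested genes passed the threshold, 20.1% upward and 23.5% downward. For the combination against SPHINX31, 7 rose and 1 fell, where 49.9% of all genes passed, 23.4% upward and 26.5% downward. The combination against untreated, which shares libraries with both, gave 6 rises and 1 fall against 50% of all genes, 23.8% upward and 26.3% downward. The median log2 fold change of the 9 genes was 0.21, 0.19 and 0.20 in these comparisons, and that of all genes was -0.0041, 0.00015 and 0.00097. In the combination against untreated, PNN was at 0.57 (SE 0.11), SAP18 at 0.43 (SE 0.05), CASC3 at 0.30 (SE 0.05) and ALYREF at -0.21 (SE 0.06), all past the threshold. All 4 libraries with indisulam were above all 4 without for 7 genes and below them for 1, where 21.5% and 24.3% of all tested genes were so separated. Since the counts are relative to the total of each library, a change in the amount of RNA per cell could not be seen. The tested genes included some with far fewer counts than these 9, where changes are harder to call. Shares among genes of like counts were not taken. The list is short, its genes were not chosen at random, and the shares above carry no test of the list.

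**Figure D4:**
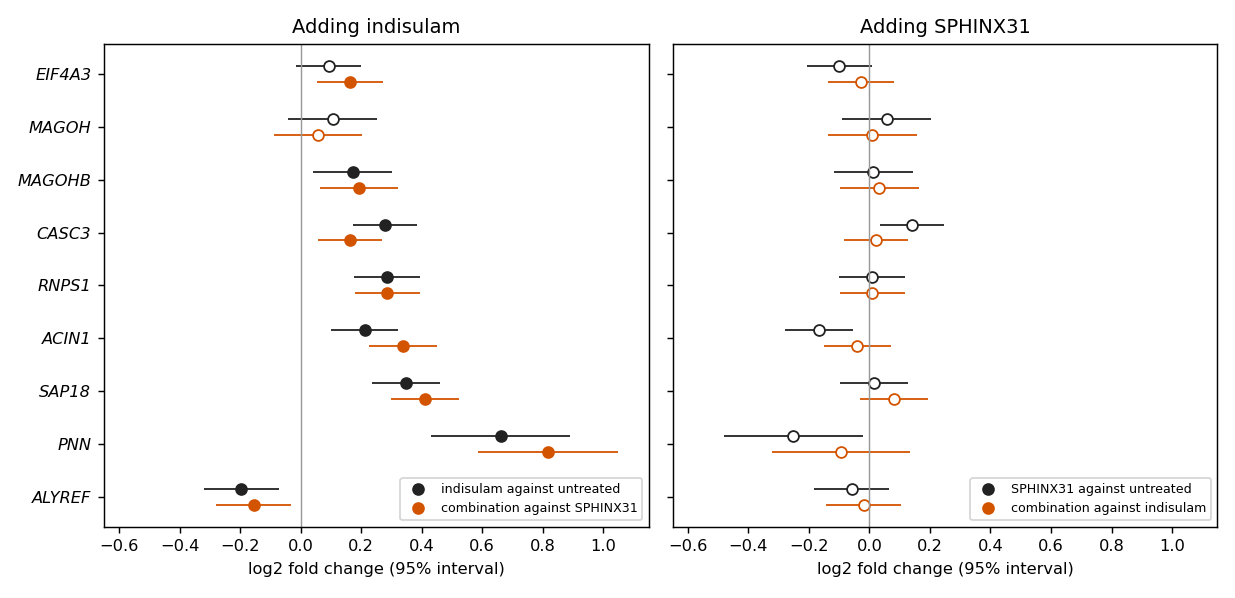
Log2 fold changes (horizontal axes) of the 9 genes with 95% intervals, for indisulam added to untreated cells or to SPHINX31 (left) and SPHINX31 added to untreated cells or to indisulam (right), where filled points have an adjusted p under 0.05. On the left 7 and 8 of 9 points are filled, with PNN at 0.66 and 0.82 and ALYREF at -0.20 and -0.16, and on the right none is filled.

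SPHINX31 alone moved none of the 9 genes past the threshold, where 8.61% of all tested genes passed it. At an unadjusted p under 0.05, 3 of the 9 genes and 24.1% of all genes were found. These were ACIN1 with a log2 fold change of -0.17 (95% interval -0.28 to -0.05, adjusted p = 0.064), CASC3 with 0.14 (0.03 to 0.25, adjusted p = 0.096) and PNN with -0.25 (-0.48 to -0.02, adjusted p = 0.17). The call depended on the analysis for the same genes. DESeq2 called ACIN1 (adjusted p = 0.046), scaling by total counts alone called CASC3 (adjusted p = 0.039), keeping every gene with at least 1 count called PNN (adjusted p = 0.0012), and offsets for GC content called CASC3 (adjusted p = 0.034) and PNN (adjusted p = 0.046). PNN was also called without SPHINX31 replicate 2, at -0.42 (adjusted p = 0.049). The other 6 genes had log2 fold changes between -0.10 and 0.06, and their intervals lay within -0.21 and 0.20.

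Adding SPHINX31 to indisulam gave 0 of 9 calls by edgeR and by DESeq2, and 0 of 9 at an unadjusted p under 0.05 by edgeR, where 7.5% of all genes were called and 22.2% had such an unadjusted p. The log2 fold changes ran from -0.09 for PNN (95% interval -0.32 to 0.13) to 0.08 for SAP18 (-0.03 to 0.19). The interaction, which asks whether indisulam acted differently in the presence of SPHINX31, gave 0 of 9 calls, and 0% of all genes by edgeR. At an unadjusted p under 0.05 it gave 8.49% of all genes and 0 of the 9, and DESeq2 called 31 genes, none of them a member. The interaction log2 values ran from -0.12 for CASC3 (-0.27 to 0.03, adjusted p = 0.67) to 0.16 for PNN (-0.17 to 0.48, adjusted p = 0.81). For 5 of the 9 genes (EIF4A3, MAGOH, MAGOHB, ACIN1 and ALYREF) the interval reached a difference as large as the indisulam effect itself.

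The other genes of the pathway were read from lists of 54 genes, of which 53 were tested. Of these 17 rose and 15 fell with indisulam, 15 rose and 17 fell with the combination against SPHINX31, and 0 changed with SPHINX31 alone. Over all tested genes, 20.1% rose and 23.5% fell with indisulam, 23.4% rose and 26.5% fell with the combination against SPHINX31, and 8.61% changed with SPHINX31. Around the exon junction complex itself, SRRM1, a coactivator of splicing that binds spliced mRNA together with the complex, rose from 89.8 and 87.9 to 142 and 145 CPM (log2 fold change 0.69, SE 0.06, adjusted p = 1.1e-06). IPO13, the import receptor of the MAGOH and RBM8A dimer, fell by 0.18 on the log2 scale (SE 0.07, adjusted p = 0.043). Of the 6 genes of loading and recycling, 2 rose and 1 fell. For nonsense-mediated decay, 2 of 10 genes rose and 3 fell. UPF3B, which bridges the exon junction complex to the decay factors, rose most (0.26, SE 0.07, adjusted p = 0.0062).

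On the side of export, 3 of 12 tested TREX genes rose and 4 fell. POLDIP3, a TREX-associated protein that is loaded on spliced mRNA, rose from 74.0 and 70.9 to 95.6 and 97.4 CPM (log2 fold change 0.41, SE 0.05, adjusted p = 1.8e-05). SARNP had the largest fall of TREX (-1.81, SE 0.32, adjusted p = 4.7e-04), but at 0.16 to 0.99 CPM, and another annotated gene overlaps it on the same strand. ZC3H11A had too few reads to be tested, and ZBED6 overlaps it on the same strand. Of the export receptor and cap binding genes 2 of 6 rose and 1 fell. NXT2, a paralog of the cofactor of the export receptor NXF1, was at 21.6 and 21.7 CPM untreated and 27.3 and 31.7 with indisulam (0.45, SE 0.08, adjusted p = 7.3e-04). NCBP1, the large subunit of the nuclear cap-binding complex, fell from 63.0 and 64.3 to 38.8 and 38.3 CPM (-0.72, SE 0.06, adjusted p = 5.1e-07).

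In TREX-2, which links transcription to the pore, 4 of 6 genes rose with indisulam and 0 fell, with ENY2 rising most (0.34, SE 0.05, adjusted p = 1.2e-04) and PCID2 just past the threshold (adjusted p = 0.0497). With the combination against SPHINX31, 5 of the 6 rose and 0 fell. In the combination against untreated 3 of the 6 rose and 1 fell. On the pore side 3 of 11 genes rose and 6 fell. NUP88, a nucleoporin of the cytoplasmic face, fell from 78.8 and 79.4 to 38.0 CPM in both indisulam libraries (-1.06, SE 0.06, adjusted p = 2.0e-08). DDX19A, a paralog of the helicase that removes export factors at the pore, rose by 0.44 (SE 0.08, adjusted p = 3.7e-04). That helicase, DDX19B, fell (log2 fold change -0.62, adjusted p = 2.7e-05). Whether reads can tell DDX19A and DDX19B apart was not examined. A long noncoding RNA annotated over NUP88 on the same strand had 0 to 6 counts, and both DDX19 genes are covered by another annotated gene with 0 counts, so that reads shared with these cannot be placed. When SPHINX31 was added to indisulam, 4 of the 53 tested genes of these lists fell and 0 rose. Of all 18661 tested genes 7.5% passed the threshold in this comparison, where 592 rose and 807 fell. The 4 are about as many as the share in either direction gives, and the share for falls alone was not taken. The log2 fold change was -0.25 for NCBP1 (adjusted p = 0.022), -0.26 for NUP98 (adjusted p = 0.016), -0.22 for NUP88 (adjusted p = 0.038) and -0.22 for NXF1 (adjusted p = 0.044). Of the paralogs of EIF4A3 that act in translation, EIF4A2 rose from 203 in both untreated libraries to 315 and 294 CPM (0.59, SE 0.05, adjusted p = 1.1e-06). EIF4A1 was listed at 2.09 to 4.69 CPM, and its level is uncertain, since a readthrough gene, SENP3-EIF4A1, covers it on the same strand.

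**Figure D5:**
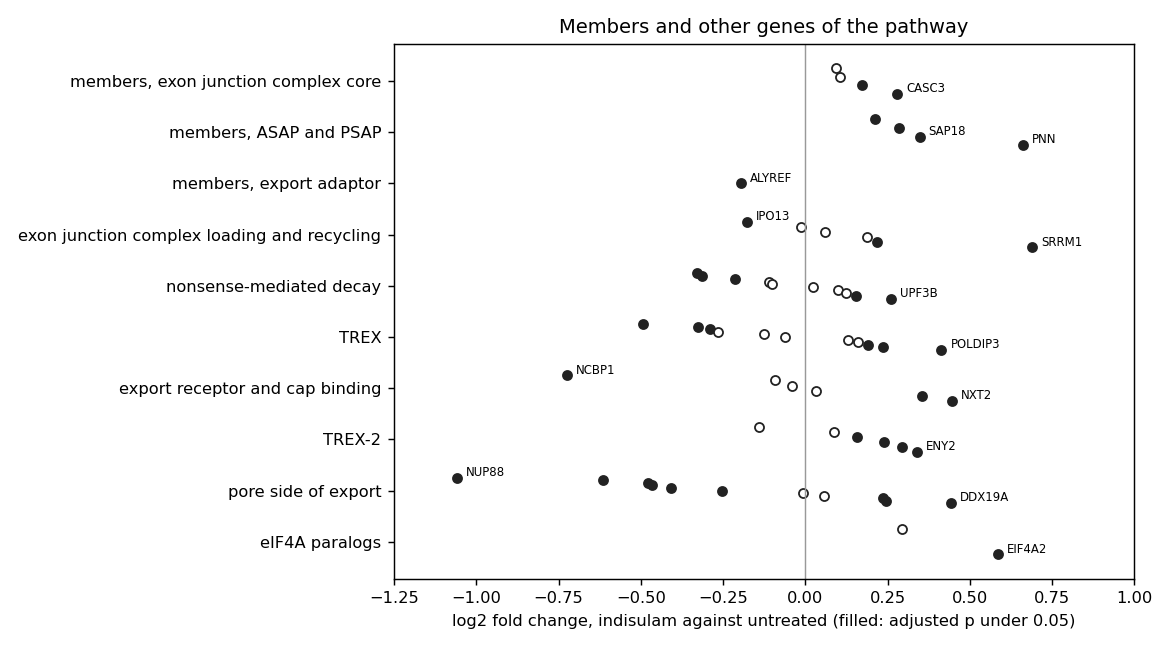
Log2 fold change with indisulam against untreated (horizontal axis) for the 9 genes (upper 3 lines of points) and the other tested genes of each list, where filled points have an adjusted p under 0.05 and some of the genes named in the text carry a symbol. SARNP, at -1.81, lies outside the axis and is not drawn, and the points of the ASAP and PSAP genes all lie right of 0, whereas the pore side runs from NUP88 at -1.06 to DDX19A at 0.44.

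The genes whose log2 fold changes with indisulam, SPHINX31 and the combination against untreated were nearest to those of PNN included DHX9 and EFEMP1, out of 9928 genes whose mean log2 CPM reached 3. Nearness was the Euclidean distance over these 3 values, which was 0.02 for DHX9 and 0.04 for EFEMP1. DHX9, an RNA helicase, had values of 0.68, -0.27 and 0.56 where PNN had 0.66, -0.25 and 0.57. For ALYREF the nearest were ODF2 (0.01), NOVA1 (0.02) and REV1 (0.02). The 3 comparisons share the untreated libraries, and these distances are a description of likeness.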

How the data were processed

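Polyadenylated RNA of A549 cells was sequenced by the authors as stranded, paired-end libraries with reads of 150 bases, 2 technical replicates for each of 4 groups. The authors deposited raw counts, the whole number of reads on each of 60624 Ensembl genes, with the reads that could not be assigned and without normalization. The submitters' processing notes name HISAT2 2.2.1, HTSeq and GRCh38, whereas the strand setting and annotation of the counting are not given in the sources used here. Names, positions, lengths and GC content came from GENCODE 44 on GRCh38, and promoters from RefSeq.

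The analysis used edgeR 4.0.16 in R 4.3.3. Genes were kept by filterByExpr and scaled by TMM, and the quasi-likelihood test was run on 1 fit of the 8 libraries, with Benjamini-Hochberg adjusted p-values over 18661 genes and a threshold of 0.05. CPM were taken with the TMM-adjusted library sizes. The biological coefficient of variation was 0.0491, and the SE of a log2 fold change was 0.05 to 0.07 for 8 of the 9 genes and 0.11 for PNN, which sets the precision at 1491 to 14150 counts per gene and library. Replicates of a group differed by more than counting error, with a chi-square per degree of freedom between 6.60 and 10.7. The MAGOHB share was tested with an exact permutation test (scipy 1.17.1). The steps were checked on simulated counts in which far fewer genes changed than were called here with indisulam. That check does not cover the scaling when a large part of the genes changes. The 9 genes and the pathway lists were chosen with earlier results of these data known. Besides the 9 genes and RBM8A, the genes named were the largest rise and fall of each list past the threshold with indisulam or with SPHINX31, and the 3 genes nearest to PNN and ALYREF, and a few genes this rule would name are not reported here. The alternatives were RLE factors, total counts alone, DESeq2 1.42.0, looser and stricter filters, only the groups compared, a threshold of 0.01, a replicate block, GC offsets over 50 bins with and without the block, and leaving out each library. Blocks with exchanged numbers were added after the data were seen. Splicing, which gene counts do not resolve, was not analysed here. NUP98, NXF1, PCID2 and DDX19B, and the values of the combination against indisulam for the pathway lists, were picked after their values were seen.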

Additional observations from a re-analysis of the deposited data

Results flagged for a closer look

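Reads outside annotated features were no part of the comparisons, and their share was higher with indisulam. They made up 4.99% ± 0.70 of the recorded reads with indisulam and 5.37% ± 0.71 with the combination, against 4.14% ± 0.28 in untreated libraries and 3.80% ± 0.19 with SPHINX31 (SD, n = 2 each). All 4 libraries with indisulam, at 4.49% to 5.87%, were above all 4 without, at 3.67% to 4.34%. The share was set beside the values of PNN above because it differed between replicates in the same order, which ACIN1 also had.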

How the results depend on the processing

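For the 9 genes, RNPS1, SAP18 and PNN passed the threshold under all 20 alternatives of indisulam against untreated, the combination against untreated and the combination against SPHINX31. No called value changed sign. Over all comparisons, alternatives other than leaving out a library gave 617 log2 fold changes on the same side of the threshold, 10 newly past it and 12 no longer past it, and leaving out a library gave 411, 1 and 20. Sign changes among values never called numbered 10 and 29. Of the 9 genes, 4 to 7 were called with indisulam when 1 library was left out (4 without untreated replicate 1 or indisulam replicate 1), 5 to 7 with the combination against untreated, 5 to 8 with the combination against SPHINX31 (5 without combination replicate 2) and 0 to 1 with SPHINX31. At a threshold of 0.01 the combination against SPHINX31 gave 4 in place of 8. SPHINX31 gave 1 call under total counts, DESeq2, the looser filter, or GC offsets with the block, and 2 under GC offsets or either crossed block, in place of 0.

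Over all genes, SPHINX31 gave 1606 calls, 2619 with GC offsets, 633 at a threshold of 0.01, and 482 to 1810 without 1 library. The combination against indisulam gave 1399, 2298, 540 and 440 to 1612 in the same order. Total counts moved the split of SPHINX31 from 921 up and 685 down to 1341 and 515, and that of the combination against indisulam from 592 and 807 to 942 and 498. The interaction gave 0 calls, 31 with DESeq2, 94 with the looser filter, 16 with GC offsets and 0 to 1 without 1 library. An interaction from only the groups compared could not be fitted. Replicate numbers did not pair the libraries, since the correlations of deviations of same-numbered libraries ran from -0.57 to 0.45 between groups, and with a replicate block the counts of calls were 7851 for indisulam, 1330 for SPHINX31, 9077 for the combination, 9074 for the combination against SPHINX31, 1169 for the combination against indisulam and 0 for the interaction. Blocks with exchanged numbers, chosen after seeing the data, gave 2630 and 2636 calls for SPHINX31, 2252 and 2210 for the combination against indisulam, and 12 and 18 for the interaction. The cause of these changes was not tested.

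The MAGOHB share differed by 1.28 to 1.98 points without 1 library, by 1.08 for indisulam against untreated alone and by 2.27 for the combination against SPHINX31 alone, with an exact p of 0.0571 and 0.333, which are the smallest these designs allow, so that they say nothing of stability. With 2 technical replicates a group, the spread between them limits the precision more than the depth does, and leaving out a library leaves a group with 1, assumed to vary like the others.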
